A study of Mus musculus with 10 samples.

Results

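The genes described here are 10 tubulin isotypes, the alpha genes Tuba1a, Tuba1b and Tuba1c and the beta genes Tubb2a, Tubb2b, Tubb3, Tubb4a, Tubb4b, Tubb5 and Tubb6. They were taken by symbol from the 56884 rows of the deposited count table, in which each of the 10 had its own row. All 10 had enough counts to be among the 17622 genes tested. The list was chosen by symbol with the DHT against void fold changes of these same mice already known. Fold changes of the 10 genes are therefore given as a description. Where the limit of the fit over all genes is mentioned, it says only on which side of it a gene fell, and is no test of the 10.

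Bulk RNA-seq was measured in hippocampi of 10 female P301S mice, also known as PS19, with 1 library per mouse. All 10 mice carried a transgene for human mutant Tau driven by the mouse Prnp promoter. From 6 months of age, 5 females carried a 10 mm subcutaneous SILASTIC implant packed with DHT, an androgen that cannot be converted into estrogen, and the other 5 carried an empty (void) implant. Tissue was taken after 12 weeks, at 9 to 9.5 months. The libraries of the void-treated females all stand before those of the DHT-treated females in library number, so the order of the libraries cannot be told apart from treatment. Total counts ranged from 27188854 to 47113661 with void and from 33523527 to 45947784 with DHT.

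Microtubules are polymers of alpha- and beta-tubulin heterodimers, and the mouse genome holds several genes for each subunit. The isotypes have nearly the same folded core and differ mostly in the acidic carboxy-terminal tail, which faces outward and carries much of the binding of motors and microtubule-associated proteins, Tau among them. Neurons are especially rich in tubulin: Tuba1a is the main alpha isotype of young neurons, Tubb3 is a standard neuronal marker, Tubb2a and Tubb2b are strong in neurons, and Tubb4a is strong in neurons and oligodendrocytes. Tuba1b and Tubb5 are made in most cells, Tubb4b is a main component of cilia as well as a general isotype, and Tuba1c and Tubb6 are known mainly from cells other than neurons.

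Near-identical coding sequences bear on how well some isotypes can be counted apart. Over the whole coding region, identity was 98.3% between Tuba1a and Tuba1b, 97.1% between Tuba1a and Tuba1c, and 97.9% between Tuba1b and Tuba1c. A read of 100 bases, the length sequenced, was then matched by exact windows: 65.1% of the 100-base windows of the Tuba1a transcript, 69.5% of those of Tuba1b and 53.4% of those of Tuba1c occurred in a transcript of at least 1 other gene. How the counting treated such reads is not given in the sources used here. Reads could have been divided among these 3 genes, and their levels are uncertain for that reason. The reads were sequenced in pairs and only single windows were matched, so these shares do not give the size of the uncertainty.

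The beta isotypes were less alike, and the end of the coding region, which encodes the tail, shows where they part. Given here are the last 60 coding bases before the stop codon, 5′ to 3′, from GENCODE M21 transcripts. Capitals mark bases that differ from Tubb5 when the whole coding regions are aligned.
Tubb5: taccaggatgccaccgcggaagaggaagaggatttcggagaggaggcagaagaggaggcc
Tubb4a: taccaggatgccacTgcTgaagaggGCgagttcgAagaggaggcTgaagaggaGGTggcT
Tubb4b: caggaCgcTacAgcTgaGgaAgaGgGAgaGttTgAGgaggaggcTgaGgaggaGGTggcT
Tubb2a: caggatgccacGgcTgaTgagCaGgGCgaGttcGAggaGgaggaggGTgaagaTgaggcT
Tubb2b: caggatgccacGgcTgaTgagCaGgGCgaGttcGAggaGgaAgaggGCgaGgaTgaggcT
Tubb3: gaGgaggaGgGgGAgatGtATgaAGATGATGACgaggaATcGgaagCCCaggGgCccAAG

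Of the isotypes shown, Tubb3 stood furthest from Tubb5 in this stretch, with 29 capitals, and Tubb4a was closest, with 10. Coding identity was 96.5% between Tubb2a and Tubb2b and between 80.2% and 86.1% for every other pair of the 7 beta isotypes. For Tubb2a, 36.9% of the 100-base windows were shared with another gene, and for Tubb2b 27.7%, most of them with each other. For Tubb4b the share was 29.2%, with processed pseudogenes. No 100-base window of Tubb3, Tubb4a, Tubb5 or Tubb6 was shared with an annotated transcript of another gene. Trimmed reads, inexact matches and unannotated sequence were not examined. The genes outside the 10 that shared the most windows with each member had between 0 and 10 counts in any mouse. Nearly all of them were annotated as processed pseudogenes. For Tuba1a, Tuba1b and Tuba1c, any genes sharing fewer windows were not looked at.

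Counts are given as TMM-normalized CPM, which scales every library to a common size so that mice can be compared. The 10 isotypes fell into 8 abundant genes and 2 rare ones. The 8 abundant genes had between 34550 and 197334 counts over the 10 mice. Tuba1c had 1276 counts and Tubb6 had 449.

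**Figure D1:**
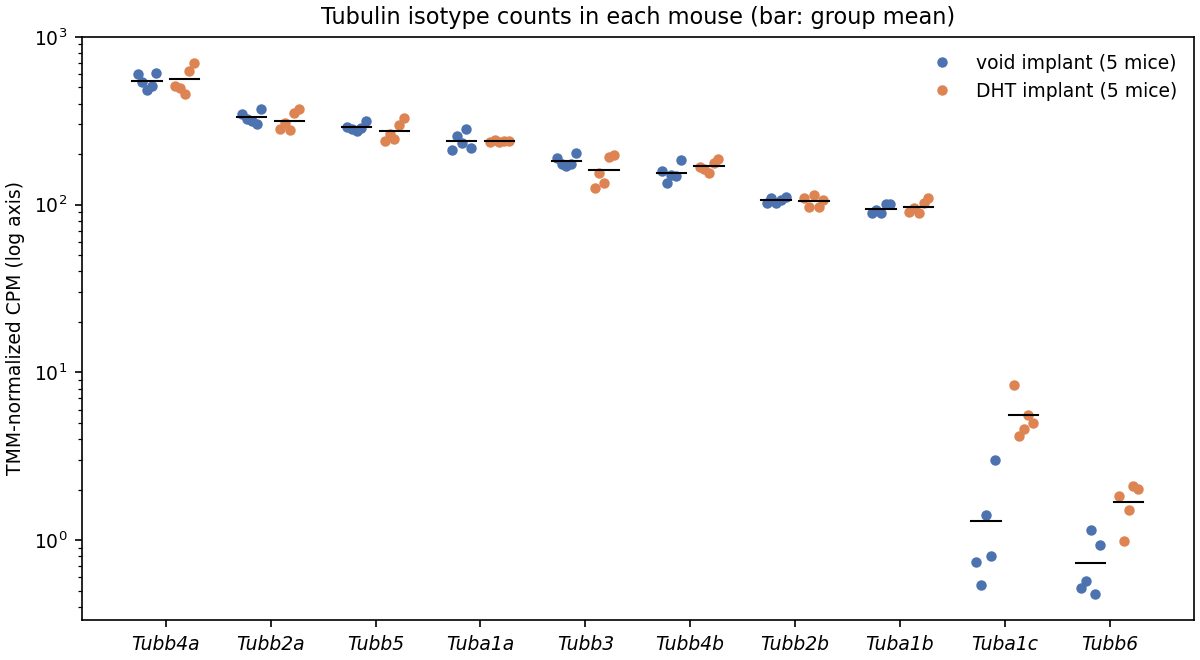
TMM-normalized CPM (log axis) of the 10 isotypes in each mouse, ordered by the void mean; points are mice, blue for void and orange for DHT, and bars are group means of 5 mice. The 8 abundant isotypes sit at similar heights in both groups, while the 5 DHT-treated mice lie above all 5 void-treated mice for Tuba1c.

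To compare isotypes with each other, CPM was divided by the exon length of each gene in kilobases. On this scale Tubb4a had the highest level, with a mean of 247.7 CPM per kilobase over the 10 mice and a range from 205.5 to 311.9. Tubb2a followed at 201.4, with a range from 172.1 to 230.6. Tubb4a was above Tubb2a in 10 of 10 mice, although their ranges overlapped. This order rests on the length used. The whole count of each gene was also divided by the number of its windows that no other gene shares. With this length, chosen after seeing the data, Tubb2a made up 33.6% of the 7 beta isotypes with void and Tubb4a 24.7%. It is a fitting length only if reads from shared windows were not counted, which is not known. Tuba1a came next at 132.4, then Tubb3 at 91.6, Tubb5 at 84.8, Tubb4b at 77.7, Tuba1b at 51.0 and Tubb2b at 45.9. The ranges of Tubb3, Tubb5 and Tubb4b overlapped, with the higher of each pair of neighbours ahead in 8 of 10 mice. Tuba1b and Tubb2b also overlapped, with Tuba1b ahead in 9 of 10 mice. Tuba1c had a mean of 1.496 CPM per kilobase and Tubb6 one of 0.496, below every abundant isotype in every mouse.

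Among genes outside the 10, the alpha gene Tuba4a was the only abundant tubulin, at 95.7 CPM per kilobase, and Tuba8 was at 4.37. Tuba3a, Tuba3b, Tubal3 and Tubb1, known mostly from other tissues such as testis, intestine and platelets, had at most 9 counts in all 10 mice together and were not tested.

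The levels per kilobase were then expressed as percentages of all alpha or all beta genes, which removes changes common to a whole pool. The alpha pool summed to 286.9 ± 16.0 CPM per kilobase with void and 283.3 ± 16.1 with DHT (n = 5 per group, SD). The beta pool summed to 756.5 ± 59.3 with void and 742.7 ± 101 with DHT. Both differences between means were smaller than the SD within a group.

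In the alpha pool of void-treated females, Tuba1a made up 46.3% ± 3.30, Tuba4a 34.4% ± 2.50, Tuba1b 17.6% ± 0.746 and Tuba1c 0.199% ± 0.155 (SD, n = 5). With DHT these were 46.6% ± 2.37, 32.8% ± 1.87, 18.2% ± 0.634 and 0.861% ± 0.282. Tuba1c thus remained under 1% of the pool on average in both groups. The lead of Tuba1a over Tuba4a rests on correcting for length. With the longest transcript as length, Tuba1a made up 41.4% of the pool with void and Tuba4a 40.1%. From counts without length, Tuba1a made up 33.7% and Tuba4a 51.3%.

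In the beta pool, Tubb4a made up 32.4% ± 1.13 with void and 33.5% ± 1.56 with DHT, and Tubb2a 27.3% ± 0.581 and 26.5% ± 0.529 (SD, n = 5 each). Tubb5 was at 11.5% ± 0.431 and 11.1% ± 0.286, and Tubb2b at 6.14% ± 0.439 and 6.24% ± 1.12. The share of Tubb6 was 0.0397% ± 0.0169 with void and 0.0930% ± 0.0207 with DHT.

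The share of Tubb3 varied little among the void-treated females, at 12.7, 12.7, 12.9, 13.0 and 12.8% in void replicates 10, 11, 4, 5 and 9. In DHT replicates 1, 2, 3, 5 and 6 it was 10.1, 11.9, 11.1, 12.6 and 11.9%. Every DHT-treated mouse was below every void-treated mouse, but narrowly, with DHT replicate 5 at 12.6% and void replicate 11 at 12.7%. The mean difference was -1.31 percentage points, and DHT replicates 1 and 3 lay lowest. In CPM, the groups overlapped for Tubb3. Among all genes tested, 0.88% lay wholly lower with DHT in CPM, and no such figure was made for shares of a pool. The share of Tubb4b was 9.62, 8.80, 10.2, 9.86 and 10.4% in the same void-treated mice and 11.9, 11.2, 11.5, 10.4 and 10.2% in the DHT-treated mice. It was 1.24 percentage points higher on average with DHT, and the groups overlapped, with DHT replicates 5 and 6 inside the void range.

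**Figure D2:**
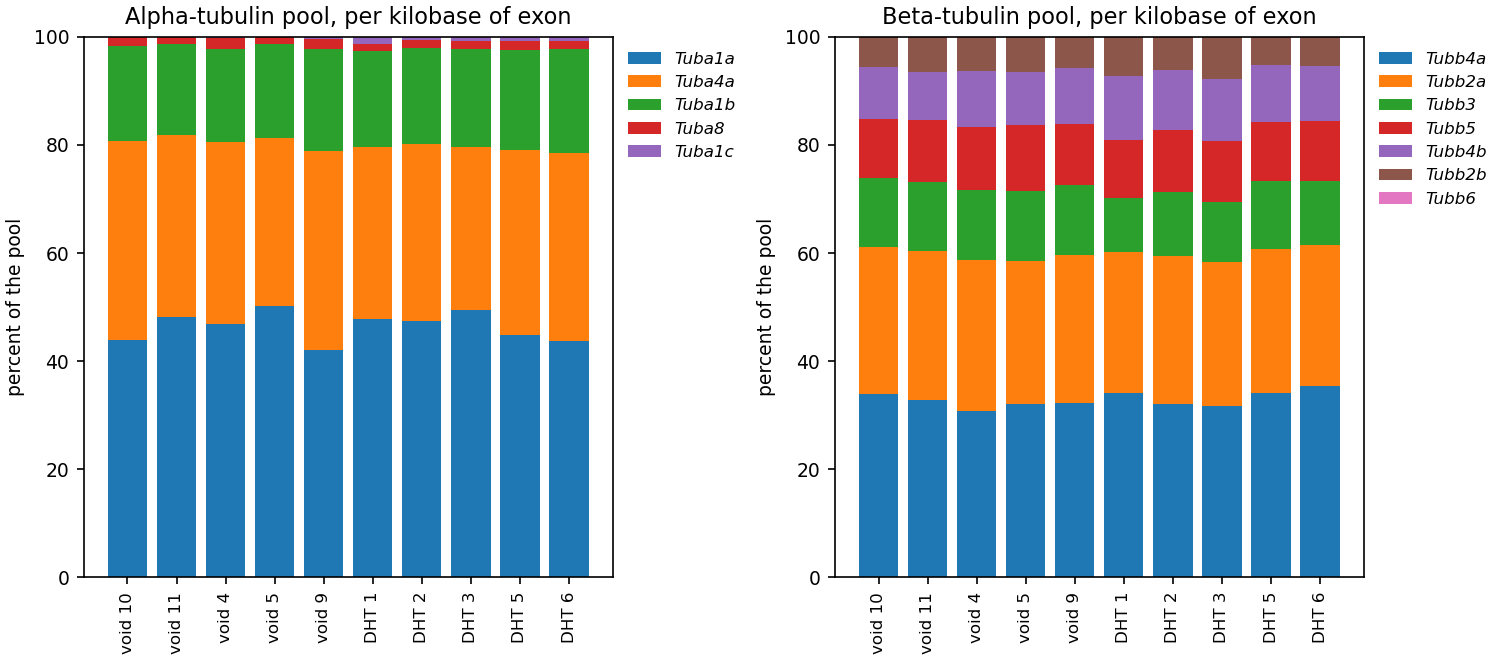
Share of each gene in the alpha-tubulin pool (left) and the beta-tubulin pool (right), in percent of CPM per kilobase, stacked for each of the 10 mice; genes under 0.01% with void are left out. Tuba1a, Tuba4a and Tuba1b fill nearly all of the alpha pool, and the beta pool keeps nearly the same make-up in all mice. The Tubb3 band is slightly thinner with DHT on average.

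The study compared DHT with void implants, and the isotypes' fold changes in that comparison are described next. In edgeR's quasi-likelihood fit over all genes, 2 of the 10 isotypes had a Benjamini-Hochberg adjusted p under 0.05, Tuba1c and Tubb6, both higher with DHT. Over all genes tested, 5.48% were under this limit, 5.22% higher and 0.261% lower with DHT. Both isotypes also exceeded a log2 fold change of 1, as 2.19% of all genes did. None of the 10 isotypes was lower at this limit in edgeR, DESeq2 or limma-voom, and 0 were lower at an unadjusted p under 0.05. At the unadjusted limit, again 2 of the 10 were counted, where 17.4% of all genes were, and 5 of the 10 had a positive log2 fold change, as had 52.4% of all genes. Because the contrast was known when the isotypes were listed, nothing is read from these counts.

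Tuba1c was at 0.738, 0.539, 1.42, 0.799 and 3.01 CPM in void replicates 10, 11, 4, 5 and 9. In DHT replicates 1, 2, 3, 5 and 6 it was at 8.39, 4.15, 4.59, 5.60 and 5.002 CPM. The groups did not overlap, which held for no other member and for 5.39% of all genes in the upward direction. Void replicate 9 was more than double the next void-treated mouse, and DHT replicate 1 was far above the other DHT-treated mice. The mean was 1.3 ± 1.01 CPM in void-treated and 5.54 ± 1.68 in DHT-treated females (SD, n = 5 each), and the log2 fold change was 2.08 (standard error 0.40).

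Raw counts behind Tuba1c ranged from 18 to 97 in void-treated females and from 168 to 307 in DHT-treated females. Its near-identical neighbour Tuba1b had 34550 counts over the 10 mice, and its log2 fold change was 0.04 with a standard error of 0.07. The count of Tuba1c was 0.833, 0.583, 1.60, 0.791 and 2.98% of that of Tuba1b in void replicates 10, 11, 4, 5 and 9. It was 9.32, 4.35, 5.18, 5.50 and 4.59% in DHT replicates 1, 2, 3, 5 and 6. Tuba1b differed little between mice, from 88.6 to 109 CPM, so this ratio mostly follows the Tuba1c count. It is no separate evidence on Tuba1c.

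Tubb6 was at 0.517, 0.569, 1.14, 0.479 and 0.931 CPM in void replicates 10, 11, 4, 5 and 9 and at 1.83, 0.987, 1.51, 2.09 and 2.02 CPM in DHT replicates 1, 2, 3, 5 and 6. In 4 of 5 DHT-treated mice it was above every void-treated mouse, and DHT replicate 2 lay within the void range, below void replicate 4. The mean was 0.728 ± 0.293 CPM in void-treated and 1.69 ± 0.454 in DHT-treated females (SD, n = 5 each), with a log2 fold change of 1.18 (standard error 0.28). These values rest on 14 to 54 counts per void-treated mouse and 40 to 72 per DHT-treated mouse. With 1 mouse left out, Tubb6 was on the same side of the limit in 3 of 10 fits, those without void replicate 4, void replicate 9 or DHT replicate 2, at log2 fold changes between 1.05 and 1.42 over the 10 fits.

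**Figure D3:**
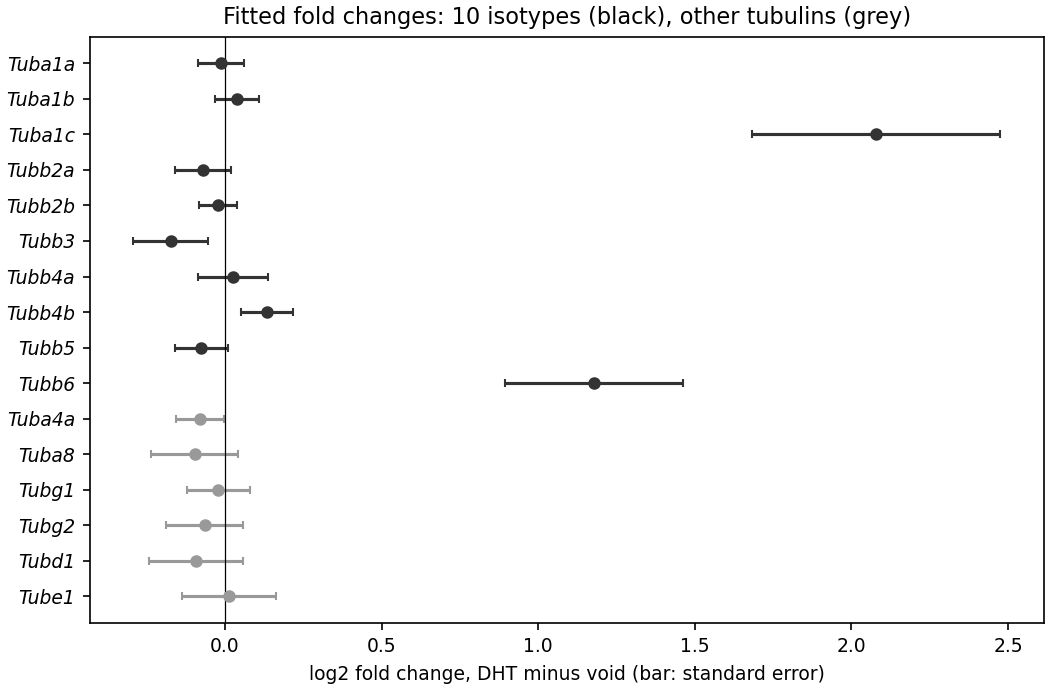
Log2 fold change, DHT minus void, with its standard error as the bar, from edgeR's fit over all genes for the 10 isotypes (black) and the 6 other tubulin genes tested (grey). Tuba1c at 2.08 and Tubb6 at 1.18 stand to the right, and all other tubulins lie between -0.17 and 0.13.

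The 8 abundant isotypes had log2 fold changes from -0.17 to 0.13, with standard errors from 0.06 to 0.12, and for 6 of them the fold change was smaller than its standard error. The 2 exceptions were Tubb3 and Tubb4b. Tubb3 was at 188, 174, 169, 174 and 202 CPM in void replicates 10, 11, 4, 5 and 9 and at 126, 154, 135, 193 and 196 CPM in DHT replicates 1, 2, 3, 5 and 6. The groups overlapped: DHT replicates 5 and 6 were as high as void-treated mice, and DHT replicates 1, 2 and 3 were below all of them. The log2 fold change was -0.17 (standard error 0.12).

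Tubb4b was at 159, 135, 150, 147 and 183 CPM in the same void-treated mice and at 167, 163, 155, 178 and 187 CPM in the DHT-treated mice. Void replicate 9 was among the highest, and 3 of 5 void-treated mice were below every DHT-treated mouse. Its log2 fold change was 0.13 (standard error 0.08).

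Tubb4a ranged from 481 to 607 CPM with void and from 458 to 695 with DHT, for a log2 fold change of 0.03 (standard error 0.11). Tubb2a ranged from 303 to 371 and from 277 to 369, and Tubb5 from 273 to 316 and from 240 to 326, in void- and DHT-treated females. Their log2 fold changes were -0.07 (standard error 0.09) and -0.08 (standard error 0.09). These 3 genes spread more widely with DHT, with SDs of 54.6 and 98.7 CPM for Tubb4a, 26.8 and 41.1 for Tubb2a and 16.2 and 37.1 for Tubb5 in void- and DHT-treated females.

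Tuba1a had the opposite spread. It ranged from 212 to 281 CPM with void and only from 234 to 244 with DHT, at a log2 fold change of -0.01 (standard error 0.07). Tubb2b ranged from 102 to 111 CPM and from 96.3 to 115 (log2 fold change -0.02, standard error 0.06), and Tuba1b from 88.6 to 101 and from 88.6 to 109. For Tubb2b the void range lay inside the DHT range, and for Tuba1b both ranges began at 88.6 CPM.

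Void replicate 9 had the highest CPM among void-treated females for 8 of the 10 isotypes, all but Tuba1a and Tubb6. DHT replicate 6 was highest among DHT-treated females for 6 isotypes, and DHT replicate 3 was lowest for 5. The lowest void values were spread over 4 mice, and each of the 5 DHT-treated mice was the highest of its group for at least 1 isotype. Tuba1a had its highest void value in replicate 5 and its lowest in replicate 10.

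Bulk tissue cannot separate a difference in the number of cells of a type in the tissue taken from a difference of RNA per cell. Markers of several cell types differed between the groups, and some also varied widely among mice of the same group. Neuron markers, for which all 11 genes had counts in every mouse, summed to between 6598 and 7325 CPM with void and between 5727 and 6870 with DHT, and 0 of 11 passed the adjusted limit. The lowest sums were in DHT replicates 1 and 3, at 5727 and 6120 CPM, the same mice in which Tubb3, Tubb2a and Tubb5 were lowest. Oligodendrocyte markers summed to between 3026 and 4166 CPM with void and between 3729 and 4079 with DHT, and 0 of 7 passed.

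Microglia markers summed to between 425 and 502 CPM with void and between 607 and 904 with DHT, and 7 of 9 were higher with DHT in the edgeR fit. Choroid plexus markers summed to 448, 123, 944, 115 and 1866 CPM in void replicates 10, 11, 4, 5 and 9, against 2979, 2155, 2098, 2211 and 2432 CPM in DHT replicates 1, 2, 3, 5 and 6. Of these 10 markers, 3 were called higher. In the same edgeR fit all 10 had positive log2 fold changes, from 1.63 to 2.30 with a median of 2.13. All 10 also had an unadjusted p under 0.05, where 17.4% of all genes did. Motile cilia markers summed to between 32.1 and 77.9 CPM with void and between 79.7 and 113 with DHT, with 4 of 10 higher. No marker of these 3 lists was at 0 in every mouse. The groups did not overlap for any of the 3 sums, nor for Tuba1c.

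The mice at the ends were shared in part. DHT replicate 1 had the highest microglia, choroid plexus and motile cilia sums and the highest Tuba1c. Among void-treated females, replicates 9 and 4 had the highest choroid plexus and motile cilia sums and the highest Tuba1c and Tubb6. Other ends differed. Tubb6 was highest in DHT replicate 5, which had the lowest motile cilia sum of its group. The highest void microglia sum was in replicate 10. Choroid plexus sums were lowest in void replicate 5 and DHT replicate 3, but Tuba1c in void replicate 11 and DHT replicate 2. Those 2 mice had the lowest motile cilia and microglia sums of their groups, respectively. The ratio of the DHT mean to the void mean was 4.26 for Tuba1c, 2.32 for Tubb6, 1.60 for the microglia sum, 3.40 for the choroid plexus sum and 1.71 for the motile cilia sum. Without void replicate 9 the ratio was 6.35 for Tuba1c, at a log2 fold change of 2.63, and 2.50 for Tubb6. For the marker sums it was then 5.83 for choroid plexus, 1.90 for motile cilia and 1.59 for microglia. The part of these cell types in the Tuba1c and Tubb6 values was not tested.

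Markers of dividing cells summed to between 4.79 and 6.49 CPM with void and between 6.42 and 12.5 with DHT. The groups overlapped, and 1 of the 5 tested genes, Cdk1, was called higher. Astrocyte markers summed to between 1920 and 2539 CPM and between 2430 and 3453, and 1 of 6, Gfap, was called higher. Immature neuron markers summed to between 98.7 and 117 CPM and between 73.3 and 119, with 0 of 7 called. No list besides those of microglia, choroid plexus and motile cilia was free of overlap between the groups.

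**Figure D4:**
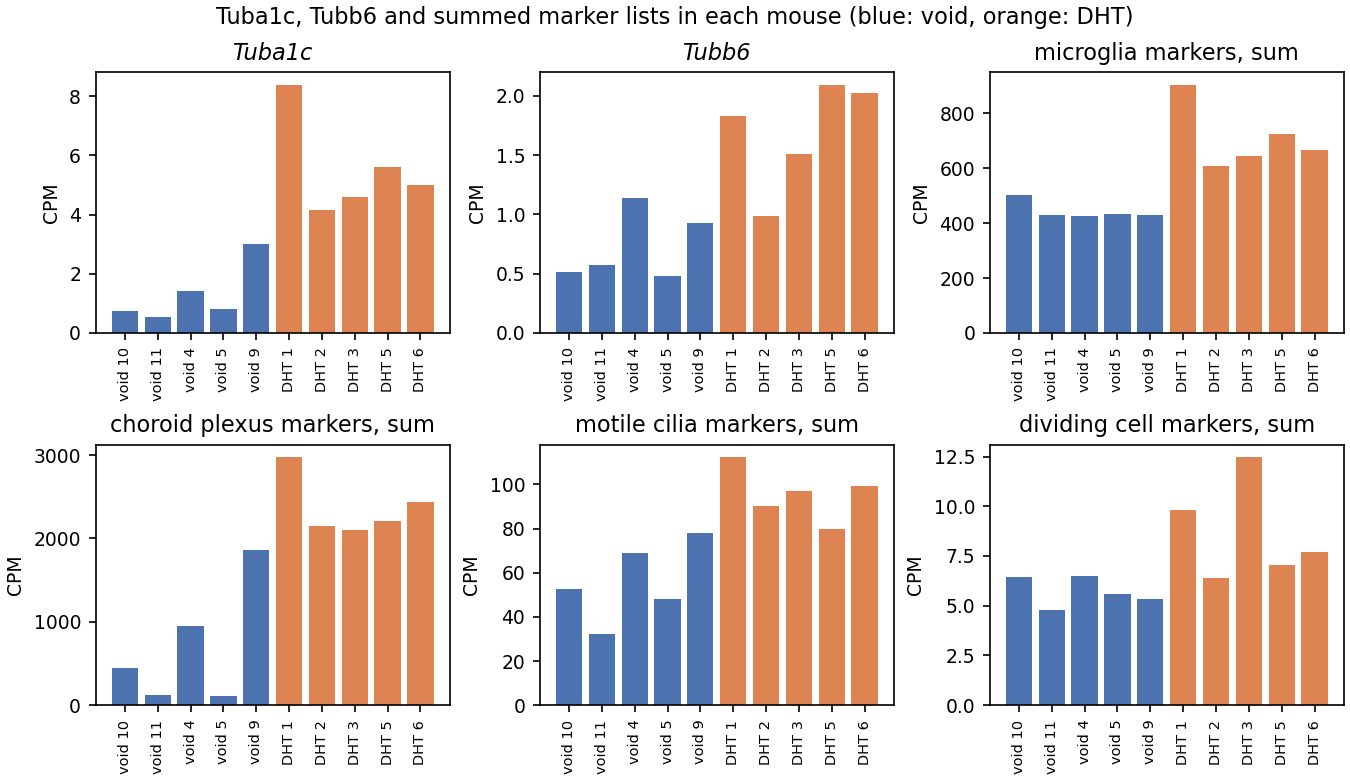
Bars give the CPM of Tuba1c and Tubb6 and the summed CPM of 4 marker lists in each mouse, named by group and replicate (blue void, orange DHT; every axis starts at 0). Tuba1c and the choroid plexus sum share their highest mouse in both groups, void replicate 9 and DHT replicate 1, while the microglia sum is nearly level across the void-treated mice.

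The regions around the start sites of Tuba1c and Tuba1b are shown because these neighbours are nearly identical in coding sequence while only Tuba1c was past the adjusted limit. Both are RefSeq promoter windows on GRCm38.p6, from 250 bases before to 50 bases after the start, read 5′ to 3′ along the gene. Tuba1c is at chr15:99029641-99029940 on the plus strand and Tuba1b at chr15:98934341-98934640 on the minus strand. Capitals mark matches, on either strand, to any of the motifs named in the next paragraph.
Tuba1c: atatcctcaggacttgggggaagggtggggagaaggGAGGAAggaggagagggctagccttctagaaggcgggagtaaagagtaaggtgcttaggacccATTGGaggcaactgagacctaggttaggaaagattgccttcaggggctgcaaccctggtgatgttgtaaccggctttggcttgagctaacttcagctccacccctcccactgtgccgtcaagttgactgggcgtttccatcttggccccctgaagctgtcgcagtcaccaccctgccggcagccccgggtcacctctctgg
Tuba1b: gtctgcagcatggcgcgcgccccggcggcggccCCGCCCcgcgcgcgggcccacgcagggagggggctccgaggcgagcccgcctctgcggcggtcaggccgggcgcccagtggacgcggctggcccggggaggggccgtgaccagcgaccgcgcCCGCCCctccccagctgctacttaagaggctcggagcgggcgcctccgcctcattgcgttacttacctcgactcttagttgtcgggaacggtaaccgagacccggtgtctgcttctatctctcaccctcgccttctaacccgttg

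The Tuba1b window had a GC content of 72.7% and the Tuba1c window one of 58.0%. Promoter windows were found for 8 of the 10 isotypes. The CCAAT box (CCAAT) occurred in 5 of the 8, those of Tuba1a, Tuba1c, Tubb3, Tubb4b and Tubb5, and in 37.4% of all 32851 windows. The GC box (GGGCGG) occurred in 6 of 8, all but Tuba1c and Tubb4a, and in 35.7% of all windows. The TATA box (TATAAA) occurred in 2 of 8, Tubb2a and Tubb4b, against 13.6%, and GAGGAA, the core bound by PU.1, in 2 of 8, Tuba1c and Tubb5, against 28.3%. The CHR element of cell cycle genes (TTTGAA) occurred in Tubb4b alone, against 17.9%. Androgen receptor half-sites (AGAACA), nuclear receptor half-sites (AGGTCA) and the interferon-stimulated response element core were in none of the 8 and in 19%, 16.3% and 3.44% of all windows. These are letter matches in short windows and not binding sites.

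The tubulin genes outside the 10 gave no call. The 6 that were tested had adjusted p values of at least 0.680 (edgeR's quasi-likelihood test, here and for the genes that follow), and 0 of 6 had an unadjusted p under 0.05. Tuba4a, an alpha isotype of mature neurons, averaged 364.1 ± 17.5 CPM in void-treated and 344.4 ± 38.8 in DHT-treated females (SD, n = 5 each; log2 fold change -0.08, standard error 0.08). For Tuba8 it was -0.10, with a standard error of 0.14. The gamma-tubulins Tubg1 and Tubg2, which nucleate microtubules, had log2 fold changes of -0.02 and -0.06, and the centriolar tubulins Tubd1 and Tube1 had -0.09 and 0.01.

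Genes that fold, modify, bind, nucleate, sever or move along microtubules were counted on 6 lists with 151 genes, of which 146 were tested. Of these, 2 were higher and 0 lower with DHT, where 5.22% of all genes were higher and 0.261% lower. With 1 mouse left out, none was higher in 6 of 10 fits. At an unadjusted p under 0.05, 14 were higher and 10 lower, where 13.1% of all genes were higher and 4.22% lower. DESeq2 called 3 higher, Agbl2, Kif1c and Tbcel, and 5 lower, Dcx, Dpysl5, Katnal1, Kif17 and Kif3a, where it called 6.73% of all genes higher and 1.51% lower. These lists too were drawn up with earlier results of these data known, so the calls on them are no independent evidence.

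Of 22 tested genes for tubulin folding, among them the CCT chaperonin and prefoldin, 1 was called, Tbcel, whose product resembles tubulin cofactor E and destabilizes tubulin. Tbcel was at 73.5, 70.0, 80.0, 76.3 and 82.0 CPM in void replicates 10, 11, 4, 5 and 9 and at 116, 96.8, 89.7, 83.6 and 91.9 CPM in DHT replicates 1, 2, 3, 5 and 6. The groups did not overlap, as for 5.39% of all genes in the upward direction. The log2 fold change of Tbcel was 0.32 (standard error 0.08) at an adjusted p = 0.0447. This call was lost in 9 of 10 fits with 1 mouse left out, all but the one without void replicate 9, at log2 fold changes from 0.21 to 0.35 and adjusted p up to 0.185. It was also lost with DESeq2 size factors and with every gene of at least 1 count, where adjusted p over the 7 other settings reached 0.0771. Tbcd, tubulin cofactor D, had a log2 fold change of 0.22 (adjusted p = 0.184), and Arl2, its small GTPase partner, 0.18 (adjusted p = 0.495). The list's median was 0.00, against 0.01 over all genes.

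Of 23 tested tubulin-modifying genes, 1 was called, Agbl2, which encodes a carboxypeptidase that removes glutamates from tubulin tails and acts at cilia. Agbl2 was at 1.96, 1.98, 2.43, 1.89 and 3.04 CPM in void replicates 10, 11, 4, 5 and 9 and at 5.79, 3.53, 4.71, 3.11 and 3.69 CPM in DHT replicates 1, 2, 3, 5 and 6. As for Tuba1c, the groups did not overlap, which held for 5.39% of all genes in the upward direction. Void replicate 9 and DHT replicate 1 were the highest of their groups. The log2 fold change of Agbl2 was 0.88 (standard error 0.20) at an adjusted p = 0.0234. This call was lost in 6 of 10 fits with 1 mouse left out, those without void replicates 10, 11, 4 or 5 or DHT replicates 1 or 3, at log2 fold changes from 0.70 to 1.01 and adjusted p up to 0.0819. Ttll9 and Ttll8, tubulin ligases known from cilia, had log2 fold changes of 0.77 (adjusted p = 0.0932) and 0.46 (adjusted p = 0.126). For Ttll9, which was not called, the groups did not overlap either. The list's median was 0.03.

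No gene of the 32 tested microtubule-associated proteins was called, and the list's median was -0.07. The lowest p belonged to Dcx, doublecortin, a marker of young neurons, at 26.97 ± 5.45 CPM in void-treated and 19.9 ± 2.93 in DHT-treated females (SD, n = 5 each). The log2 fold change of Dcx came to -0.44 (standard error 0.14), at an adjusted p = 0.106. Dpysl5, a collapsin response mediator, had -0.24 (adjusted p = 0.149) and Map2, the dendritic microtubule protein, -0.18 (adjusted p = 0.184). Mapt, the mouse gene for Tau, averaged 656.7 ± 29.5 CPM in void-treated and 632.5 ± 48.0 in DHT-treated females (log2 fold change -0.05, standard error 0.06, adjusted p = 0.738). Whether transgene reads were counted in the Mapt row is not given in the sources used here.

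Among 25 plus-end, minus-end and severing proteins 0 were called, with Mapre1 (end-binding protein, log2 fold change 0.17, adjusted p = 0.130), Katnal1 (a katanin-like severing enzyme, -0.14, adjusted p = 0.168) and Fignl2 (0.47, adjusted p = 0.232) at the lowest p. Among 19 nucleation genes 0 were called, with Cdk5rap2 at 0.23 (adjusted p = 0.178), Nedd1 at 0.31 (adjusted p = 0.246) and Haus4 at 0.23 (adjusted p = 0.543). Among 25 motor genes 0 were called. Kif17, a dendritic kinesin, had a log2 fold change of -0.37 (adjusted p = 0.0749), Kif1c 0.37 (adjusted p = 0.0844) and Kif3a, a subunit of kinesin-2, -0.12 (adjusted p = 0.165). The list medians were -0.04, 0.01 and -0.07.

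**Figure D5:**
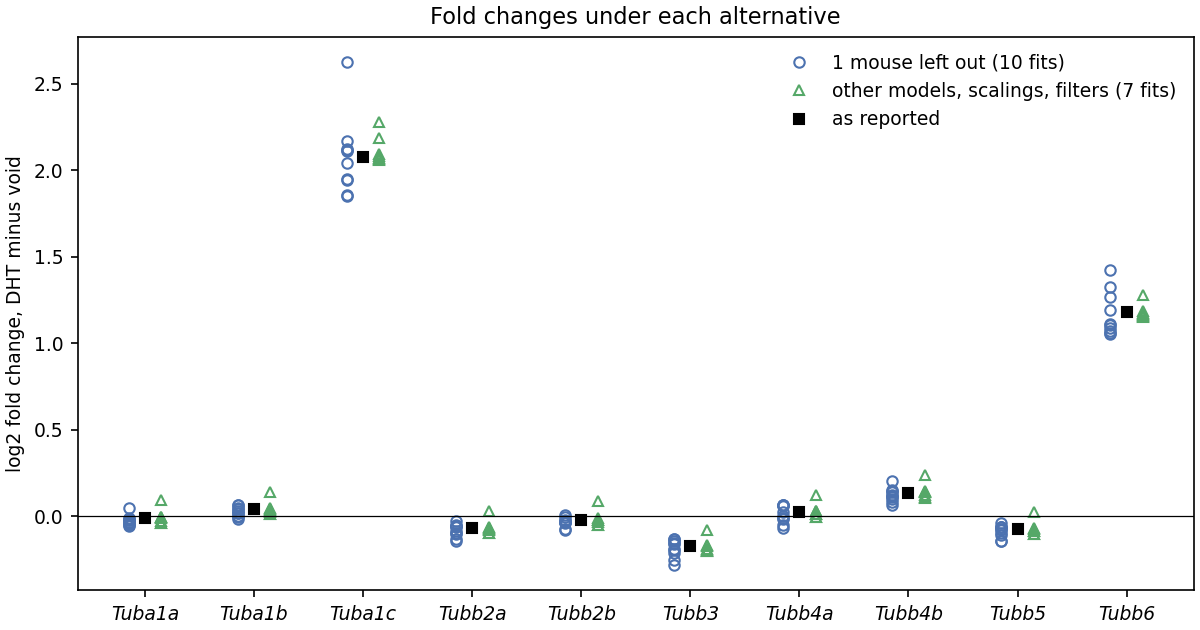
Log2 fold change, DHT minus void, of the 10 isotypes as reported (black squares), with 1 mouse left out (blue circles, 10 fits) and under 7 other models, scalings and filters (green triangles). Tuba1c stays between 1.85 and 2.63 and Tubb6 between 1.05 and 1.42, and each of the other 8 stays between -0.28 and 0.24.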

How the data were processed

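Poly(A) libraries were made from 500 ng of hippocampal RNA per mouse and sequenced as paired reads of 100 bases. The authors trimmed and filtered reads with HTStream, aligned them with STAR 2.7.10b and deposited raw counts per gene. The paper names mm10 and the submitters' processing notes name mm39 and GRCm39. The annotation release, strand setting and treatment of reads matching several genes are not given in the sources used here. GENCODE M21 gave symbols for 51948 of 56884 identifiers, 51911 with a later version number in the count table, so it served for names, lengths and transcript sequences.

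Groups came from the treatment labels. Counts were tested in R 4.3.3 with edgeR 4.0.16 (TMM, filterByExpr, quasi-likelihood test, Benjamini-Hochberg adjustment over 17622 genes, limit 0.05). The standard error of a log2 fold change was taken as its size over the root of the F statistic. The tests were also run on simulated counts drawn from the means and dispersions of these data. Alternatives were DESeq2 1.42.0, limma-voom 3.58.1, other scalings, filters, lengths and leaving out each mouse. Coding regions were aligned with Biopython 1.88. Genes named outside the 10 are all other tubulins, Mapt and the 3 lowest p of each list. The members and lists were chosen with earlier results of these data known. The paper states that littermates were randomized between the treatments, but the labels do not give the litter of a mouse. Litter is therefore not in the fit. Each p-value sets the difference between the groups against the spread between mice, which are taken as independent. The end of the alpha coding regions is not reported here.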

Additional observations from a re-analysis of the deposited data

How the results depend on the processing

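No paired analysis was possible because the labels give neither litters nor pairs, although the paper states that littermates were randomized. Over all genes, 920 were higher and 46 lower. With a log2 fold change limit these were 382 and 4, at an unadjusted p 2316 and 743, and with size factors from neuron markers 1605 and 10. DESeq2 called 266 lower. With 1 mouse left out, higher genes ranged from 351 to 1072 and lower genes from 5 to 77. The log2 fold change of Tuba1c ranged from 1.85 to 2.63 over the 17 alternatives, which is a description, since the isotypes were listed with this contrast known. With 1 mouse left out, the log2 fold change of Tubb6 ranged from 1.05 to 1.42, and the isotypes past the limit ranged from 1 to 2, Tubb6 being the one lost. The cause was not tested. The log2 fold change of Tubb2b was 0.089 with neuron marker size factors, which shift the median of all genes to 0.115. The 2 genes called higher on the 6 lists became 1 with DESeq2 size factors, 1 with every gene of at least 1 count and 6 with neuron marker size factors, and ranged from 0 to 3 with 1 mouse left out. The 0 called lower became 5 with DESeq2 and ranged from 0 to 1 with 1 mouse left out. An alternative length chosen after seeing the data was the number of windows that no other gene shares, with whole counts kept. With it, Tuba1a made up 67.9% of the 3 alpha isotypes with void, against 72.2% by exon length. Tubb2a made up 33.6% of the 7 beta isotypes, ahead of Tubb4a at 24.7%. Counts of 14 to 97 in void-treated females limit Tubb6 and Tuba1c.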
